A study of Mus musculus with 6 samples.

Results

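The genes described here are 6 members of the tumour necrosis factor (TNF) receptor and ligand families that carry costimulatory signals in T cells. They are the receptors Tnfrsf4, Tnfrsf9, Tnfrsf18, Tnfrsf1b and Cd27 and the ligand Cd40lg. They were chosen by name, through their Ensembl gene IDs, and all 6 were found among the 22322 genes of the deposited table. Ribosome footprints, the short mRNA fragments that translating ribosomes protect, had been counted per gene in 3 libraries of activated and 3 libraries of resting mouse T cells. The study followed mRNA decay with and without translation during T cell activation, and these libraries are its untreated state at 0 h.

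Both groups were primary CD4+ T cells of female C57BL/6J mice aged 6 weeks, taken from spleen and lymph nodes and purified by negative selection. The activated cells had been given beads coupled with CD3 and CD28 antibodies, and the resting cells had not. The sources used here give neither the length of the stimulation nor whether animals were pooled. The libraries are called biological replicates 2, 3 and 4 in each group, with no statement that they came from separate animals, so each p-value reflects only how far these libraries spread, which may be technical. Counts in coding sequence (CDS) summed to between 437200 and 1074656 per library. The files give no gene names beside their IDs, so the purity of the T cells could not be checked against markers of other cells. That includes regulatory T cells, which are known to carry several of these receptors at rest, and their part in the results was not tested. In bulk libraries like these, more cells that translate a gene and more footprints per cell cannot be told apart. No mRNA levels were set beside the footprints, so more mRNA and more translation of each mRNA cannot be told apart either.

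Costimulatory receptors of the TNF receptor family are single-pass membrane proteins. When their trimeric ligands bind, their tails recruit TRAF adaptor proteins, which activate NF-kappaB and MAP kinase pathways and help a T cell to survive and divide. Cd27 is known as a receptor that naive T cells already carry. Tnfrsf4 (OX40), Tnfrsf9 (CD137) and, in conventional T cells, Tnfrsf18 (GITR) are known for their induction or increase after antigen recognition, and Tnfrsf1b (TNFR2) is the TNF receptor without a death domain. Cd40lg (CD154) runs the other way: it is a ligand on activated helper T cells that engages CD40 on B cells, dendritic cells and macrophages.

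Of the 6 genes, 4 lie on mouse chromosome 4 (RefSeq, assembly GRCm38.p6, the mm10 build that the study names). Tnfrsf4 (ENSMUSG00000029075.6) spans chr4:156013595-156016613 and Tnfrsf18 (ENSMUSG00000041954.17) spans chr4:156026322-156028894, with a gap of 9708 bp that holds 1 annotated gene, the small nuclear RNA gene Gm25982. Tnfrsf9 (ENSMUSG00000028965.12) spans chr4:150920155-150946104 and Tnfrsf1b (ENSMUSG00000028599.9) spans chr4:145212368-145246870. Cd27 (ENSMUSG00000030336.13) lies at chr6:125232620-125237136 and Cd40lg (ENSMUSG00000031132.1) at chrX:57212143-57224042. The locus of the long noncoding RNA gene Gm16008 covers all of Tnfrsf18, that of the long noncoding RNA gene E130112N10Rik covers all of Cd27, and the microRNA gene Mir8113 lies within Cd27. The protein-coding gene Sdf4 overlaps Tnfrsf4 by 16 bp, and no annotated locus overlaps Tnfrsf9, Tnfrsf1b or Cd40lg. The strand setting of the counting is not stated in the sources used here, so records of overlapping genes cannot be assigned with certainty.

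The bases before the annotated starts of the genes were searched for binding motifs of factors that T cell receptor signalling is known to activate. RefSeq promoter windows were at hand for 5 of the 6 genes, with 2 windows for Tnfrsf9, and the search covered the 250 bases before each start on both strands. The motifs were the NF-kappaB consensus of 10 letters, the AP-1 motif TGANTCA and the NFAT core GGAAA. The NFAT core matched in 5 of the 6 windows, all but that of Tnfrsf1b, against 55.6% of all 32851 mouse promoter windows. The other motifs each matched in 1 of the 6 windows, against 7.25% of all windows for the NF-kappaB consensus and 6.75% for AP-1. Both lay before the downstream start of Tnfrsf9, where the NF-kappaB consensus matched in 2 positions that differ by 1 base and overlap an NFAT core on the other strand. A match describes letters in a window and does not show that a factor binds there. Its bearing on the footprints was not tested.

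The stretches below show the neighbours Tnfrsf4 and Tnfrsf18 and both starts of Tnfrsf9, 5′ to 3′. Capitals mark NFAT cores on either strand in the first 3 sequences, both overlapping matches to the NF-kappaB consensus in the fourth and AP-1 in the last. Only bases outside the annotated locus are given for the first 3.
Tnfrsf4, chr4:156013445-156013594, plus strand: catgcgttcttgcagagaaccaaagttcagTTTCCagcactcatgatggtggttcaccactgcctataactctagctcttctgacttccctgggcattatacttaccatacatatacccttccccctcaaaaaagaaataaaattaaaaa
Tnfrsf18, chr4:156026072-156026321, plus strand: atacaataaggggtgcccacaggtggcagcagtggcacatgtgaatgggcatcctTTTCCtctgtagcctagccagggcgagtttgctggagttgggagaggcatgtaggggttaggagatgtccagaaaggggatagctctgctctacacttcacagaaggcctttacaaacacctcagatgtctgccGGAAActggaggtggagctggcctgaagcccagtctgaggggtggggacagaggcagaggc
Tnfrsf9 upstream start, chr4:150919905-150920154, plus strand: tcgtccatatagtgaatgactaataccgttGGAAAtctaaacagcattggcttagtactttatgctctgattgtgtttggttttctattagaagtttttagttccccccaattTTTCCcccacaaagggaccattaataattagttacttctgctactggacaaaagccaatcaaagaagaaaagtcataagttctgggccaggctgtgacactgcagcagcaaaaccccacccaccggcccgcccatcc
Tnfrsf9 downstream start, chr4:150927946-150927975, plus strand: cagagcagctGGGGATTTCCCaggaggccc
Tnfrsf9 downstream start, chr4:150927969-150927998, plus strand: gaggccctgctcagtTGAGTCAcaggtcct

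CDS footprints of all 6 genes rose in activated cells (edgeR quasi-likelihood test, adjusted p under 0.05 over 6775 genes tested). Across all genes tested, 24.1% rose. By at least 2-fold 4 of the 6 genes rose, against 14.7% of genes tested. For each of the 6, every activated library lay above every resting library, which held for 28.1% of genes tested. The median log2 change was 1.82 over the 6 genes and -0.038 over all genes tested. The genes were picked by name with earlier results of these data known, so their shared direction describes them and is not evidence about TNF receptor genes in general.

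**Figure D1:**
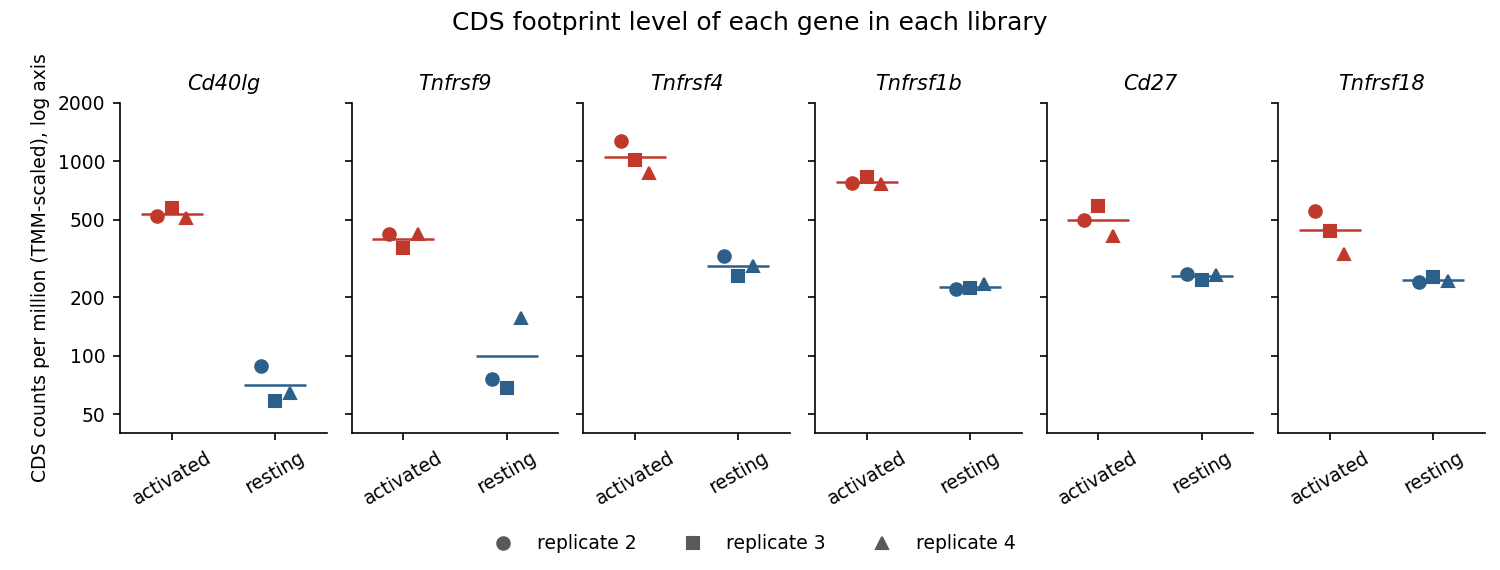
CDS counts in CPM (counts scaled to library size with TMM, log axis) of each gene in the 3 activated libraries (red, left) and the 3 resting libraries (blue, right); symbols mark the replicate number and lines the group means. No gene's groups overlap, the widest gap is that of Cd40lg, and levels are not comparable between panels because counts were not divided by coding length.

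Cd40lg, the ligand, changed most. It had 231, 457 and 478 CDS counts in activated replicates 2, 3 and 4, against 42, 36 and 42 in resting replicates 2, 3 and 4. Scaled to library size these were 525, 574 and 509 CPM in activated cells, against 88.3, 58.4 and 64.6 CPM in resting cells. The lowest activated library was thus 5.76 times the highest resting library. The log2 change was 2.94 (SE 0.18, 7.70-fold, edgeR adjusted p = 4.92e-09), and 1.64% of all genes tested had a higher one.

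Tnfrsf9, the receptor for Tnfsf9 (the 4-1BB ligand), came next in size of change. It had 185, 286 and 395 CDS counts in activated replicates 2, 3 and 4, against 36, 42 and 102 in resting replicates 2, 3 and 4. In CPM this was 420, 360 and 420 in activated cells, against 75.7, 68.1 and 157 in resting cells. Resting replicate 4 stood above the other resting libraries, so that the resting level had a coefficient of variation of 49.0%, the widest of the 6 genes in either group, against 8.79% in activated cells. The log2 change was 1.97 (SE 0.24, 3.92-fold, edgeR adjusted p = 5.17e-06), and 2.47 without resting replicate 4 (edgeR adjusted p = 1.31e-07).

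Tnfrsf4, the receptor for OX40 ligand, had 557, 810 and 815 CDS counts in activated replicates 2, 3 and 4, against 154, 158 and 188 in resting replicates 2, 3 and 4. That was 1266, 1018 and 868 CPM in activated cells, against 324, 256 and 289 CPM in resting cells. In both groups replicate 2 was the highest library, and the lowest activated library was 2.68 times the highest resting one. The log2 change was 1.86 (SE 0.17, 3.62-fold, edgeR adjusted p = 3.35e-07).

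Tnfrsf1b, which binds TNF and lymphotoxin alpha, varied least between replicates. It had 338, 656 and 714 CDS counts in activated replicates 2, 3 and 4, against 105, 138 and 152 in resting replicates 2, 3 and 4. In CPM this was 768, 825 and 760 in activated cells, against 221, 224 and 234 in resting cells. Its coefficients of variation were 4.49% in activated and 2.97% in resting cells. The log2 change was 1.79 (SE 0.15, 3.47-fold, edgeR adjusted p = 8.75e-08).

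Cd27, the receptor for CD70, rose less. It had 219, 470 and 389 CDS counts in activated replicates 2, 3 and 4, against 125, 152 and 169 in resting replicates 2, 3 and 4. In CPM this was 498, 591 and 414 in activated cells, against 263, 247 and 260 in resting cells. The resting libraries lay close together (coefficient of variation 3.37%) and the activated libraries further apart (17.7%). The log2 change was 0.97 (SE 0.16, 1.95-fold, edgeR adjusted p = 0.000153).

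Tnfrsf18, the receptor for GITR ligand, had the smallest change of the 6. It had 243, 347 and 315 CDS counts in activated replicates 2, 3 and 4, against 114, 157 and 158 in resting replicates 2, 3 and 4. In CPM this was 552, 436 and 335 in activated cells, against 240, 255 and 243 in resting cells. The lowest activated library, replicate 4, was 1.32 times the highest resting library, the narrowest gap of the 6 genes. The log2 change was 0.83 (SE 0.18, 1.78-fold, edgeR adjusted p = 0.0013), and 18.0% of all genes tested had a higher one.

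**Figure D2:**
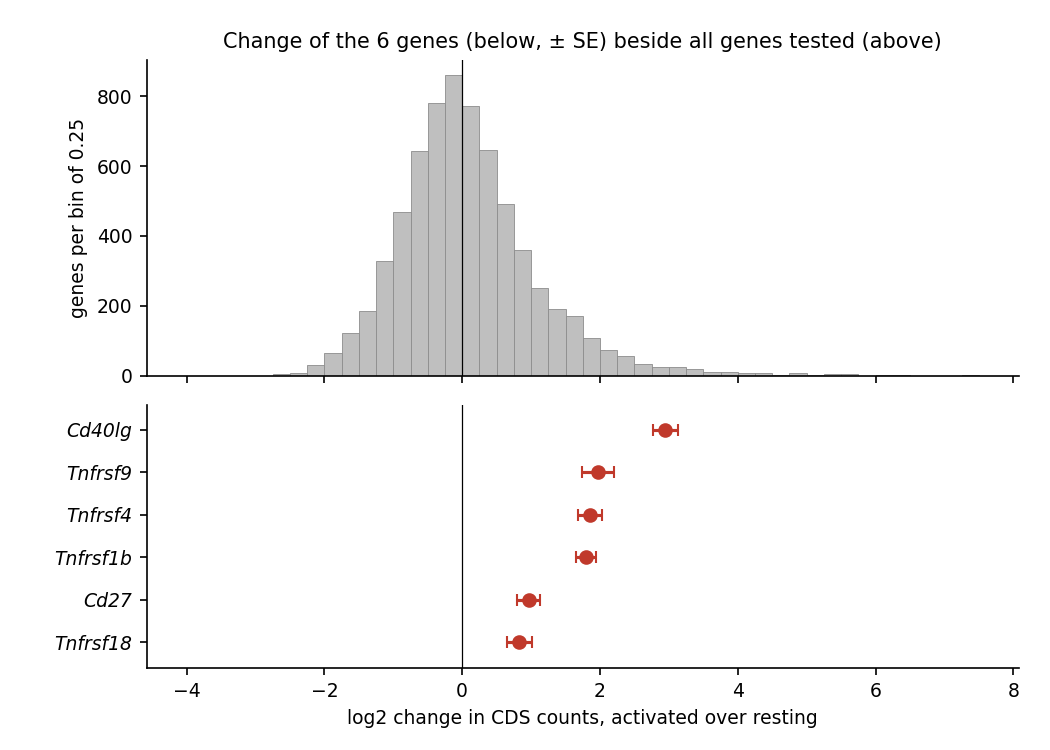
Above, the number of genes in each bin of 0.25 of the log2 change in CDS counts, activated over resting, for all 6775 genes tested; below, on the same axis, the log2 change of each of the 6 genes with its SE. All 6 lie to the right of 0, between 0.83 for Tnfrsf18 and 2.94 for Cd40lg.

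Directions are relative to the scaling between libraries. TMM scaling gave 1633 genes higher and 1449 lower in activated cells, upper quartile factors 1392 and 1881, and library totals alone 1099 and 2560, with a median log2 change over all genes of -0.17 and -0.38 under the last 2 scalings. All 6 genes remained higher past the threshold under each of these scalings. With library totals alone the smallest change, that of Tnfrsf18, was 0.49 (edgeR adjusted p = 0.0279), and that of Cd40lg was 2.61 (edgeR adjusted p = 1.92e-08).

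**Figure D3:**
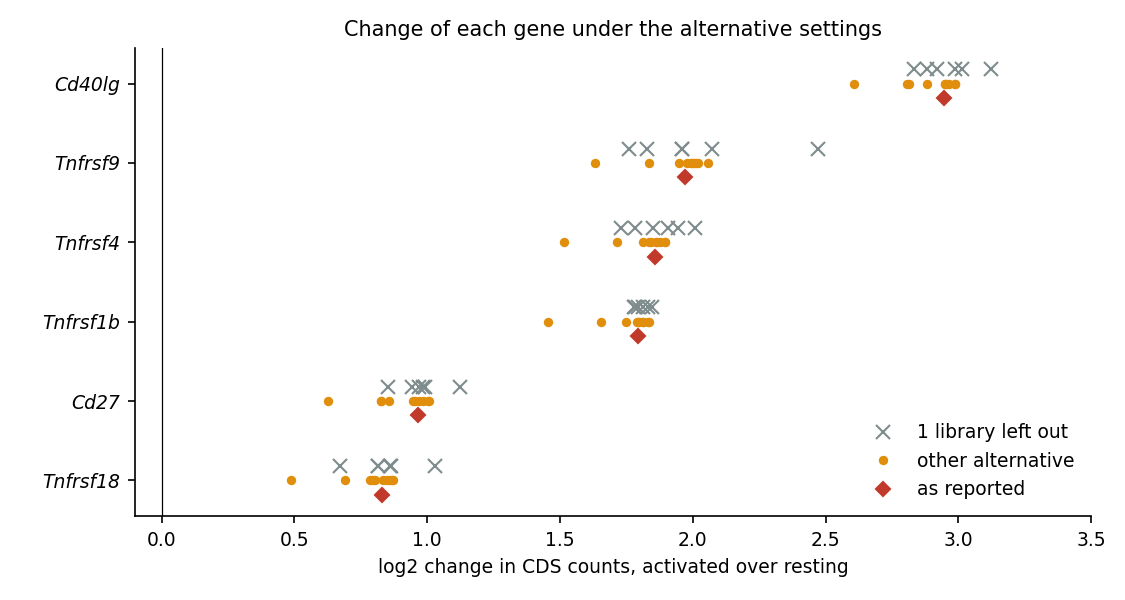
Log2 change in CDS counts, activated over resting, of each gene as reported (red diamonds), with 1 library left out (grey crosses) and under the other alternatives of scaling, filter, test, counting column and replicate block (orange dots). No value lies below 0, the lowest is 0.49 for Tnfrsf18 with library totals alone, and the cross at 2.47 for Tnfrsf9 leaves out resting replicate 4.

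Ratios of 2 of these genes within a library do not depend on the scaling. All 15 pairs were tested by exact permutation, two-sided. The 6 libraries allow 20 assignments and no p below 0.1, so no pair could reach 0.05. In 11 pairs the groups did not overlap (exact permutation p = 0.1, adjusted 0.136 over 15 pairs), as in 55.5% of the 22946925 pairs among all genes tested. The narrowest of these gaps was that of Tnfrsf9 with Cd27. Its log2 ratio was -0.716 at least in activated cells, in replicate 3, and -0.726 at most in resting cells, in replicate 4. Next came Tnfrsf9 with Cd40lg. Its log2 ratio reached -0.27 at most in activated replicate 4 and was -0.22 at least in resting cells, in replicate 2. The 4 pairs whose groups overlapped were Tnfrsf4 with Tnfrsf9, Tnfrsf4 with Tnfrsf1b, Tnfrsf9 with Tnfrsf1b, and Tnfrsf18 with Cd27. In the order of log2 changes, the groups lay apart between Cd40lg and the next 3 genes, and between those 3 and the pair of Cd27 and Tnfrsf18, and overlapped within these sets. With so large a share of all gene pairs lying apart, and no p below 0.1, this order is a description of these libraries.

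The neighbours on chromosome 4 were one of the pairs whose groups lay apart. Per Tnfrsf18 count there were 2.29, 2.33 and 2.59 Tnfrsf4 counts in activated replicates 2, 3 and 4, against 1.35, 1.01 and 1.19 in resting replicates 2, 3 and 4. The log2 ratio, with a pseudocount of 0.5, was 1.26 ± 0.094 in activated and 0.23 ± 0.21 in resting cells (SD, n = 3 each), a difference of 1.03 (exact permutation p = 0.1). Cd40lg moved furthest against Tnfrsf18: per Cd40lg count there were 1.05, 0.759 and 0.659 Tnfrsf18 counts in activated cells, against 2.71, 4.36 and 3.76 in resting cells.

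For the pairs that overlapped, the differences were small or wide. The log2 ratio of Tnfrsf18 to Cd27 was -0.20 ± 0.31 in activated and -0.061 ± 0.095 in resting cells (SD, n = 3 each), a difference of -0.14 (exact permutation p = 0.5). Their log2 ratio turned to a difference of 0.024 in the other CDS counting mode. For Tnfrsf4 to Tnfrsf1b the difference was 0.055, and it ran from -0.10 to 0.16 with 1 library left out. For Tnfrsf4 to Tnfrsf9 it was -0.24, and -0.61 to -0.012 with 1 library left out, the spread being that of Tnfrsf9 in resting cells. A p of this size does not show that these genes changed alike.

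Summed, the 6 genes held 1773, 3026 and 3106 CDS counts in activated replicates 2, 3 and 4, against 576, 683 and 811 in resting replicates 2, 3 and 4. This was 0.323 ± 0.030% of all CDS counts in activated and 0.130 ± 0.0081% in resting cells (SD, n = 3 each), a ratio of 2.49 (exact permutation p = 0.1, the smallest possible). Within that sum, Cd40lg held 14.5 ± 1.29% in activated and 5.91 ± 1.19% in resting cells. The share of Tnfrsf18 was 11.8 ± 1.80% in activated and 20.8 ± 1.94% in resting cells, and that of Cd27 was 13.5 ± 1.79% in activated and 21.6 ± 0.714% in resting cells. The groups did not overlap for these 3 shares, and they overlapped for the shares of Tnfrsf4, Tnfrsf9 and Tnfrsf1b. Shares of 1 sum are bound to each other, so a higher share of 1 gene lowers those of the others together. Such shares were not worked out for other sets of genes. The exact permutation p was 0.1 for the shares of Cd40lg, Tnfrsf18 and Cd27, 0.2 for Tnfrsf4 and Tnfrsf1b, and 0.3 for Tnfrsf9. The shares rest on the same counts as the ratios and are not separate evidence.

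**Figure D4:**
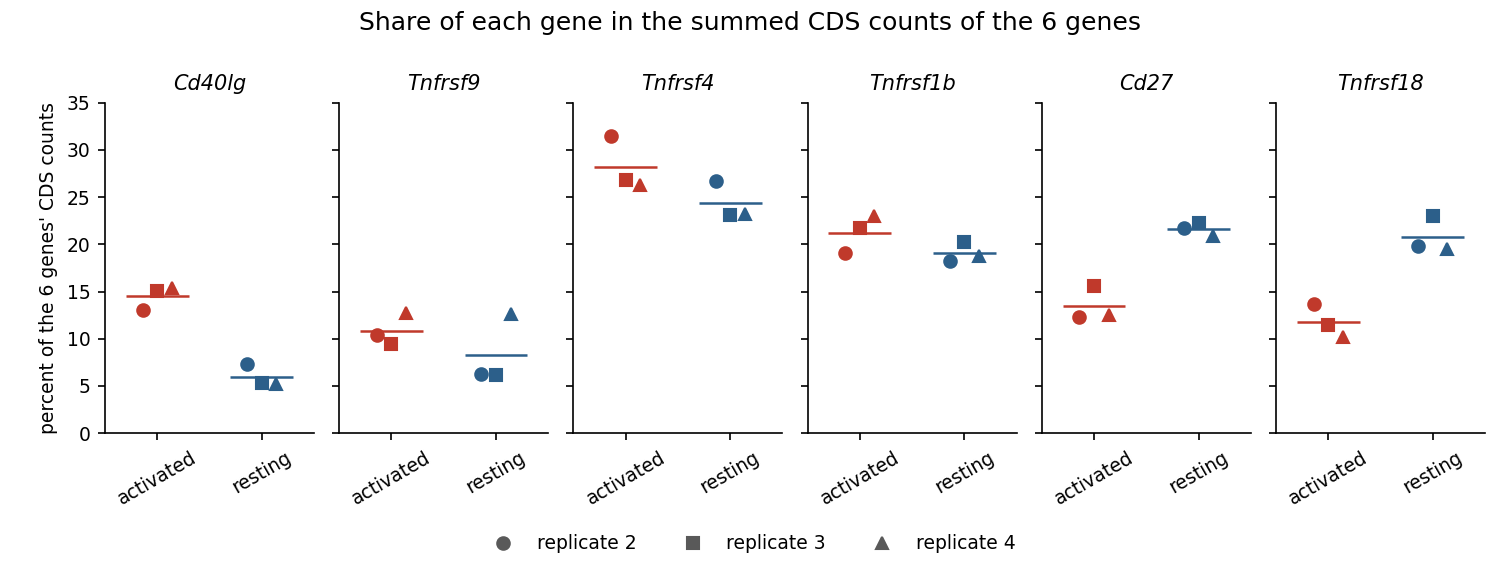
Percent of the summed CDS counts of the 6 genes that each gene held, in the 3 activated libraries (red, left) and the 3 resting libraries (blue, right), with group means as lines and replicate numbers as symbols. The share of Cd40lg is higher in every activated library, and those of Cd27 and Tnfrsf18 are lower.

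The 6 genes differed in how many footprints were counted upstream of the coding sequence. Tnfrsf4 and Cd40lg had 0 counts in the 5' UTR, the mRNA leader, in every library. Against 2682 and 1286 CDS counts over all libraries, a count of 0 allows up to 0.112 leader counts per 100 CDS counts for Tnfrsf4 and up to 0.233 for Cd40lg. Of the 5759 genes with at least 100 CDS counts over all libraries, 16.6% had no leader count. Whether the annotation used for counting holds a leader for these genes is not stated in the sources at hand.

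Cd27 had the most leader footprints of the 6, with 51, 75 and 78 counts in activated replicates 2, 3 and 4, against 14, 23 and 22 in resting replicates 2, 3 and 4. They rose by 1.23 on the log2 scale (SE 0.24, edgeR adjusted p = 0.000986). Tnfrsf9 had 12, 36 and 48 leader counts in activated and 6, 4 and 9 in resting replicates 2, 3 and 4, and these rose by 1.71 (SE 0.44, edgeR adjusted p = 0.0059; 1.31 and adjusted p = 0.0592 without resting replicate 3). These were the only 2 of the 6 genes with enough leader counts for this test, and both rose, against 22.2% of the 2200 genes tested on leader counts. Genes pass the low-count filter more easily when 1 group is high, and the resting leader counts of Tnfrsf9 were low. This count is therefore no support for a rise in leader counts of the set, and it says nothing of the other members.

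Tnfrsf18 had 4, 8 and 6 leader counts in activated and 6, 3 and 7 in resting replicates 2, 3 and 4. Tnfrsf1b had 1, 4 and 3 in activated cells and 0 in each resting library, too few to give a fold. Over all libraries there were 17.3 leader counts per 100 CDS counts for Cd27, 11.0 for Tnfrsf9, 2.55 for Tnfrsf18 and 0.380 for Tnfrsf1b, beside a median of 8.11 over the 5759 genes. These ratios are not corrected for the lengths of leader and coding sequence.

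**Figure D5:**
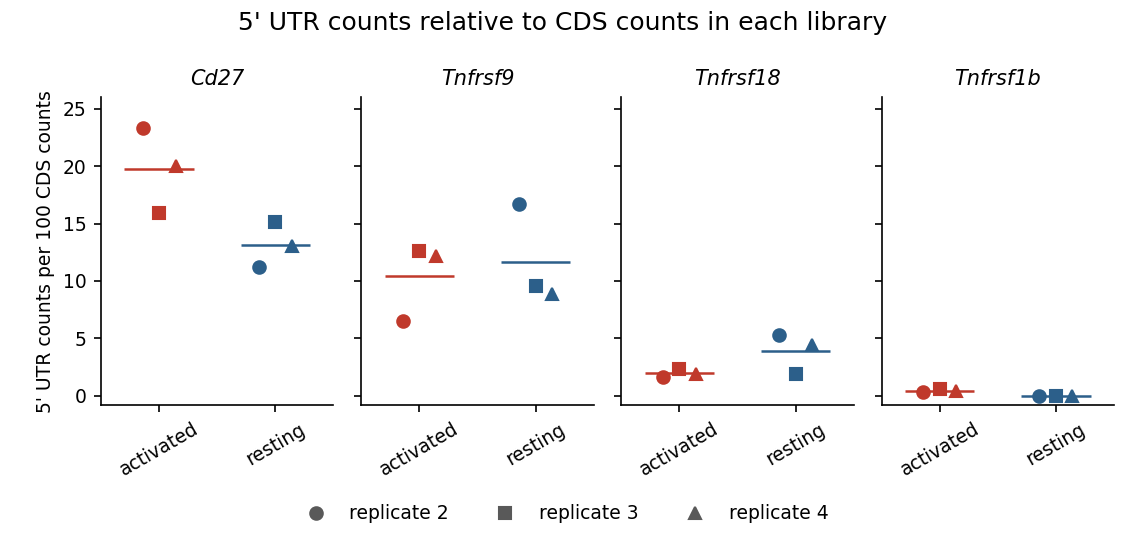
5' UTR counts per 100 CDS counts of the 4 genes with any leader count, in the 3 activated libraries (red, left) and the 3 resting libraries (blue, right), with group means as lines and replicate numbers as symbols. Cd27 lies between 16.0 and 23.3 in activated and between 11.2 and 15.1 in resting libraries, and the groups overlap for Tnfrsf9 and Tnfrsf18.

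Relative to the CDS, leader counts of none of the 4 genes passed the test (edgeR, region by activation term, with each region scaled on its own), in which 0.462% of 6282 genes passed in either direction. That share rests on 29 genes, and 2 to 45 genes passed with 1 library left out. At an unadjusted p under 0.05 there was 1 of the 4, against 8.88% of the 6282 genes. It was Tnfrsf18, with 1.65, 2.31 and 1.90 leader counts per 100 CDS counts in activated replicates 2, 3 and 4, against 5.26, 1.91 and 4.43 in resting replicates 2, 3 and 4. The ratio changed by -1.20 on the log2 scale in the fit (SE 0.57, unadjusted p = 0.0364, adjusted 0.526 by edgeR). For Cd27 the ratio was 19.8 ± 3.67 in activated and 13.1 ± 1.97 in resting cells (SD, n = 3 each), and the groups did not overlap. How often this held over all genes was not counted, and these raw ratios are not scaled between libraries. The highest, 23.3, was in activated replicate 2. That library also had the most leader counts relative to CDS counts over all genes (102410 beside 511483). The same totals were 153868 beside 1074656 in activated replicate 4, where Cd27 had 20.1. In resting replicate 2 they were 62055 beside 437200, and Cd27 had 11.2. The part of the library totals in the ratios of Cd27 was not tested. With regions scaled apart, edgeR gave a log2 difference of 0.27 for Cd27 (SE 0.34, adjusted p = 0.906). When both regions shared 1 set of factors it gave 0.56 (adjusted p = 0.631). For Tnfrsf9 the ratio was 10.4 ± 3.40 in activated and 11.7 ± 4.34 in resting cells, and edgeR gave a log2 difference of -0.28 (SE 0.48, adjusted p = 0.931).

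The genes also differed in how their records were counted. The CDS column in intersection-nonempty mode held 123 counts per 100 in the first CDS column for Cd40lg and 119 for Cd27, against a median of 107 over the 5759 genes, of which 92.3% were at or below the value of Cd40lg and 87.8% at or below that of Cd27. The exon column set Cd40lg apart: it held 91.5 counts per 100 in the intersection-nonempty CDS column, below 100, as in 294 of the 5759 genes (5.11%), while the other 5 genes lay between 100.3 and 114.9. The cause was not tested, and the log2 change of Cd40lg kept its direction and its call in both other columns.

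For each gene, the gene with the nearest profile over the 6 libraries was sought, as the smallest Euclidean distance between log2 CPM values centred on their mean, among 6774 other genes. None of the nearest genes was another of the 6, but so few of the 6774 genes are members that this says little of their likeness. The smallest distances were 0.119 for Cd27, to ENSMUSG00000060477.13 (log2 change 1.08, SE 0.24, edgeR adjusted p = 0.00157), and 0.119 for Tnfrsf18, to ENSMUSG00000019297.8 (log2 change 0.75, SE 0.24, edgeR adjusted p = 0.0173). Within the set, Tnfrsf4 and Tnfrsf1b (0.474) and Tnfrsf18 and Cd27 (0.482) were the nearest pairs, and Tnfrsf18 and Cd40lg (2.64) the furthest.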

How the data were processed

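The authors deposited 1 table of raw counts, with 36 count columns, 6 per library: CDS in a pair of counting modes, 5' UTR, 3' UTR, exons and introns, per the file headers. TopHat2 2.0.13, Bowtie 1.1.1.0, HTSeq and the build mm10 come from the submitters' processing notes. The sources used here do not give annotation release, strand setting or read filters. Rows that name no gene stayed out of all sums over genes. Records not uniquely aligned were 65.8% to 79.6% of all records in a library's first CDS column, with those rows included.

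CDS and 5' UTR counts were each tested across all genes, activated against resting, with edgeR 4.0.16 in R 4.3.3 (filterByExpr, TMM, glmQLFit, glmQLFTest, two-sided, Benjamini-Hochberg, threshold 0.05), checked on simulated data. Fits took no covariate. SE is the size of the log2 change over the square root of F. The ratio of 5' UTR to CDS was tested in 1 edgeR model with a term per library, for genes with at least 5 counts in each region. DESeq2 1.42.0 and limma 3.58.1 were alternatives. Ratios and shares used exact permutation tests in SciPy 1.17.1. The limits given for a count of 0 leader counts take 3 counts as the upper 95% limit and cover counting error only.

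The members and lists were chosen with earlier results of these data known. The text names the 6 members and the nearest genes by profile. Symbols came with the members' IDs; 0 of 22322 IDs matched the reference table, so the lists of TNF ligands, other receptors, TRAF adaptors, NF-kappaB genes and cell markers could not be run. No protein sequences or coding lengths were used, so levels per length are not given.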

Additional observations from a re-analysis of the deposited data

Results flagged for a closer look

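Intron and 3' UTR counts of the 6 genes were looked at where a gene had at least 10 counts in all, which left 1 gene in introns and 2 genes in the 3' UTR. In 2 of these 3 cases counts scaled to CDS depth were higher in every activated library than in every resting library. Of all genes with at least 10 counts, the same held for 14.6% of 1382 genes in introns and 9.73% of 1223 genes in the 3' UTR. In introns, Tnfrsf9 had 16 counts over the activated libraries (3, 6 and 7 in replicates 2, 3 and 4), against 3 over the resting libraries (0, 3 and 0). Scaled to CDS depth (TMM, CPM) these were 6.82, 7.54 and 7.45 in activated and 0, 4.87 and 0 in resting cells. Per 100 CDS counts of the gene this was 1.85 in activated and 1.67 in resting cells. In the 3' UTR, Tnfrsf1b had 38 counts over the activated libraries (10, 14 and 14), against 18 over the resting libraries (6, 5 and 7). On the same scale these were 22.7, 17.6 and 14.9 in activated and 12.6, 8.11 and 10.8 in resting cells. Per 100 CDS counts of the gene they were 2.22 in activated and 4.56 in resting cells. The third case, the 3' UTR of Tnfrsf9, overlapped, with 4.54, 7.54 and 3.19 in activated and 0, 0 and 4.61 in resting cells on that scale. Both Tnfrsf9 cases, with 3 resting counts each, reached 10 counts only through the activated libraries, where they are high. The count of cases is therefore no support for a rise. All rest on few counts, and none was tested.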

How the results depend on the processing

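In CDS counts, each of the 16 alternatives run still called all 6 genes higher; their log2 changes ran from 0.49 (Tnfrsf18, library totals alone) to 3.12 (Cd40lg). The number of genes called was 2218 to 3659, against 3082. With a replicate block, 3446 genes were called in the CDS (1791 higher), 816 in the 5' UTR and 25 for the ratio, against 3082, 925 and 29; Cd40lg was at 2.95 and Tnfrsf18 at 0.80, and no call of a member changed. Same-numbered libraries deviated together at r = 0.13, 0.074 and 0.23. Libraries of different number lay lower, between -0.16 and 0.0075. Deviations from a group mean cancel within that group, so higher values for same-numbered libraries lower the others. The second range is thus not separate evidence. The labels do not say what the numbers mark, so the pairing is not settled. In 5' UTR counts DESeq2 called 586 genes against 925, and Tnfrsf9 lost its call without resting replicate 3 (1.31). For the 5' UTR relative to the CDS, 6 genes were called with 1 scaling for both regions, and 2 to 45 with 1 library left out (2 without resting replicate 4, 7 without resting replicate 3, 11 without resting replicate 2, 18 without activated replicate 3, 45 without activated replicate 4). The ratio of Tnfrsf9 was 0.077 without activated replicate 2, against -0.28, and ran from -0.58 to 0.077 with 1 library left out. The difference in log2 ratio of Tnfrsf4 to Tnfrsf1b turned to -0.10 without activated replicate 2 and to -0.023 without resting replicate 3 (range -0.10 to 0.16), and that of Tnfrsf18 to Cd27 to 0.024 in intersection-nonempty mode. The cause was not tested. Pairs that did not overlap numbered 11 to 13 under the alternatives. There were 12 without activated replicate 2 and 13 without resting replicate 4. With fewer libraries overlap is less likely, and the share over all gene pairs was not counted for these settings. The difference in the share of CDS counts on the 6 genes was 0.164 to 0.210 percentage points, against 0.193. Leader counts allowed a test of 2 of the 6 genes.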
